A study of Mus musculus with 18 samples.

Results

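The 8 genes described here carry bile acids through the epithelial cell of the ileum, sense them, or report their arrival to the liver: Fgf15, Nr0b2, Nr1h4, Slc10a2, Slc51a, Slc51b, Fabp6 and Abcc3. They were chosen by name with earlier results of these data known, and all 8 were found among the 47729 gene identifiers counted. Values came from 18 libraries of polyadenylated RNA from sorted ileal epithelial cells, with 6 libraries each from lactating females at day 7 and from virgin females and virgin males, both of matched age. All mice ate standard chow (RM3 for breeding, RM1 for maintenance and experiment). The sources used here do not give strain, age in weeks, time since the last meal or sorting gates. Nor do the labels say whether every library comes from its own animal, so p-values measure the spread between these libraries.

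Bile acids reach the ileum with digested food. Slc10a2 encodes ASBT, the sodium-dependent transporter that takes them up at the brush border, Fabp6 encodes the ileal bile acid binding protein of the cytosol, and Slc51a and Slc51b encode the paired subunits of OST, which releases them to the blood. Abcc3 encodes MRP3, an ATP-driven exporter of organic anions including bile acid conjugates. Nr1h4 encodes FXR, the nuclear receptor that bile acids bind, and Fgf15 and Nr0b2 are classical FXR targets: Fgf15 is the endocrine growth factor that lowers bile acid synthesis in the liver, and Nr0b2 (SHP) is a receptor without a DNA-binding domain that represses other nuclear receptors.

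FXR is known to bind an inverted repeat of the letters AGGTCA spaced by 1 base, and LRH-1 (Nr5a2), a partner receptor at bile acid genes, an extended site containing TCAAGG. Promoter windows of 300 bases (250 before to 50 after the RefSeq start, GRCm38.p6) were on hand for 6 of the 8 genes, and 4 are shown, those of the repressor, of the exporter subunits and of the most abundant member. Capitals mark matches on either strand to AGGTCANTGACCT with up to 2 mismatches, or exact matches to the single arm AGGTCA, to its variant GGGTCA, or to the LRH-1 letters TCAAGG. Each window is written 5′ to 3′ along the gene.
Nr0b2 (chr4:133553126-133553425, plus strand): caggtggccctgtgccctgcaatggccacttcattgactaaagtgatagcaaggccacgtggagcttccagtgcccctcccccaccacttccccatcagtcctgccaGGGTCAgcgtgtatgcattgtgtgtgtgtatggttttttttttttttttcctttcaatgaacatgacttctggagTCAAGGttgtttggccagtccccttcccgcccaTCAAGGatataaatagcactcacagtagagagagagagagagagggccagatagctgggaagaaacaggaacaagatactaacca
Slc51a (chr16:32487830-32488129, minus strand): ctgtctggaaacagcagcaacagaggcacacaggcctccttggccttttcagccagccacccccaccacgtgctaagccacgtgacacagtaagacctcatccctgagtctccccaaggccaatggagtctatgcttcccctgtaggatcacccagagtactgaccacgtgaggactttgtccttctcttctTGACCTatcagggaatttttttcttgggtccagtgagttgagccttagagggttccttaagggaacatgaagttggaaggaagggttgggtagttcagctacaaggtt
Slc51b (chr9:65422724-65423023, minus strand): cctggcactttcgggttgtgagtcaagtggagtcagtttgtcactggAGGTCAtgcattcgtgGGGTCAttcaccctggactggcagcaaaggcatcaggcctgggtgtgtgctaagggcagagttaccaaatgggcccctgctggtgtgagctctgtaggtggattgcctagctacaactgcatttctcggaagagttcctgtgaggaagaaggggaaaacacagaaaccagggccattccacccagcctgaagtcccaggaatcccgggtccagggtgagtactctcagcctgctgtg
Fabp6 (chr11:43601513-43601812, minus strand): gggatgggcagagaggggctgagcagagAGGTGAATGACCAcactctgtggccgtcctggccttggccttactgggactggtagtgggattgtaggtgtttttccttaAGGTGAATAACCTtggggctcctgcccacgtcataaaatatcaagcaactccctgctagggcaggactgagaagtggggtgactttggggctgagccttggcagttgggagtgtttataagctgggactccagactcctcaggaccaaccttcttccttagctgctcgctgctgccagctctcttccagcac
Among these windows, Fabp6 held 2 matches to the inverted repeat, AGGTGAATGACCA starting 222 bases and AGGTGAATAACCT starting 142 bases before the start, each with 2 mismatches. Such a match occurred in 1.14% of 32851 mouse promoter windows of this length. AGGTCA is the single arm of the repeat and GGGTCA a variant of that arm. AGGTCA stood in the Slc51b, Slc51a and Nr1h4 windows and in 16.3% of all windows. GGGTCA stood in the Nr0b2 and Slc51b windows and in 13.7% of all. The Nr0b2 window held TCAAGG at 68 and at 35 bases before the start, a run found in 14.4% of all windows. None of these letters stood in the Slc10a2 window. A match describes letters only and says nothing about binding in these cells.

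On GRCm38 the hormone gene Fgf15 spans 144896531 to 144900953 of chromosome 7, and the repressor gene Nr0b2 spans 133553376 to 133556536 of chromosome 4, each with exons in 2 blocks. Exonic bases are shared with a gene on the other strand by 3 of the 8 genes: Slc51a shares 567 of its 3198 exonic bases with Pcyt1a, Fgf15 761 of 3058 with the noncoding Gm26793, and Slc51b 91 of 709 with Rasl12. Whether the counting used strand is not known, so reads of these stretches may be mixed or lost. Gm26793 had 301 counts over all libraries, against 43410 for Fgf15, and Rasl12 had 746, against 231604 for Slc51b. Pcyt1a had 121248 counts, against 480945 for Slc51a.

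Library totals ran from 34577104 to 49039300 counts. Gm42418, which overlaps ribosomal RNA, reached 31048 counts per 1e6 (CPM, scaled by TMM factors) in virgin female 2 and 29981 in virgin male 6. The other libraries lay at 1230 to 4477 CPM. The fold changes of the 8 genes were also fitted without both libraries, and no correlation is given without both. Markers were those of epithelium: 8 enterocyte markers summed to 15230 CPM or more in every library. The 9 stromal, endothelial and muscle markers summed to at most 0.895 CPM. Of 9 leukocyte markers, 8 averaged under 1 CPM in each group; the exception was Lyz2. The ileal cobalamin receptor genes Cubn and Amn summed to 434 CPM or more in every library. The 5 markers listed for the proximal small intestine were mixed. Pdx1 had a highest value of 0.187 CPM, and Onecut2 and Cybrd1 averaged 1.53 and 1.60 CPM. Gata4 averaged 57.9 CPM and Lct 871 CPM (222 to 2003). In sorted bulk RNA, fewer cells of a type and less RNA per cell cannot be told apart.

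Levels are compared between genes per length, as CPM per kilobase of exon. Fabp6 was by far the most abundant of the 8 genes, with a mean of 13250 ± 7456 CPM per kilobase in the lactating group, 9480 ± 4485 among virgin females and 6318 ± 1172 among virgin males (SD, n = 6 each). It ranked between 1 and 17 among all annotated genes in each library by this measure. The exporter subunits came next: Slc51b at 315 to 561 CPM per kilobase and Slc51a at 159 to 236, as group means. Slc51a stood at 0.344 to 0.65 times the level of Slc51b per kilobase in every library. Below them came Slc10a2, with group means of 29.0 to 62.8, and Nr1h4, with 41.9 to 53.8. Fgf15 lay below Nr1h4 in each group (5.10 to 40.1), above Abcc3 in virgin females and below it in the other groups (Abcc3 11.7 to 14.9). Nr0b2 was the lowest in each group, at 0.364 to 5.84 CPM per kilobase.

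**Figure D1:**
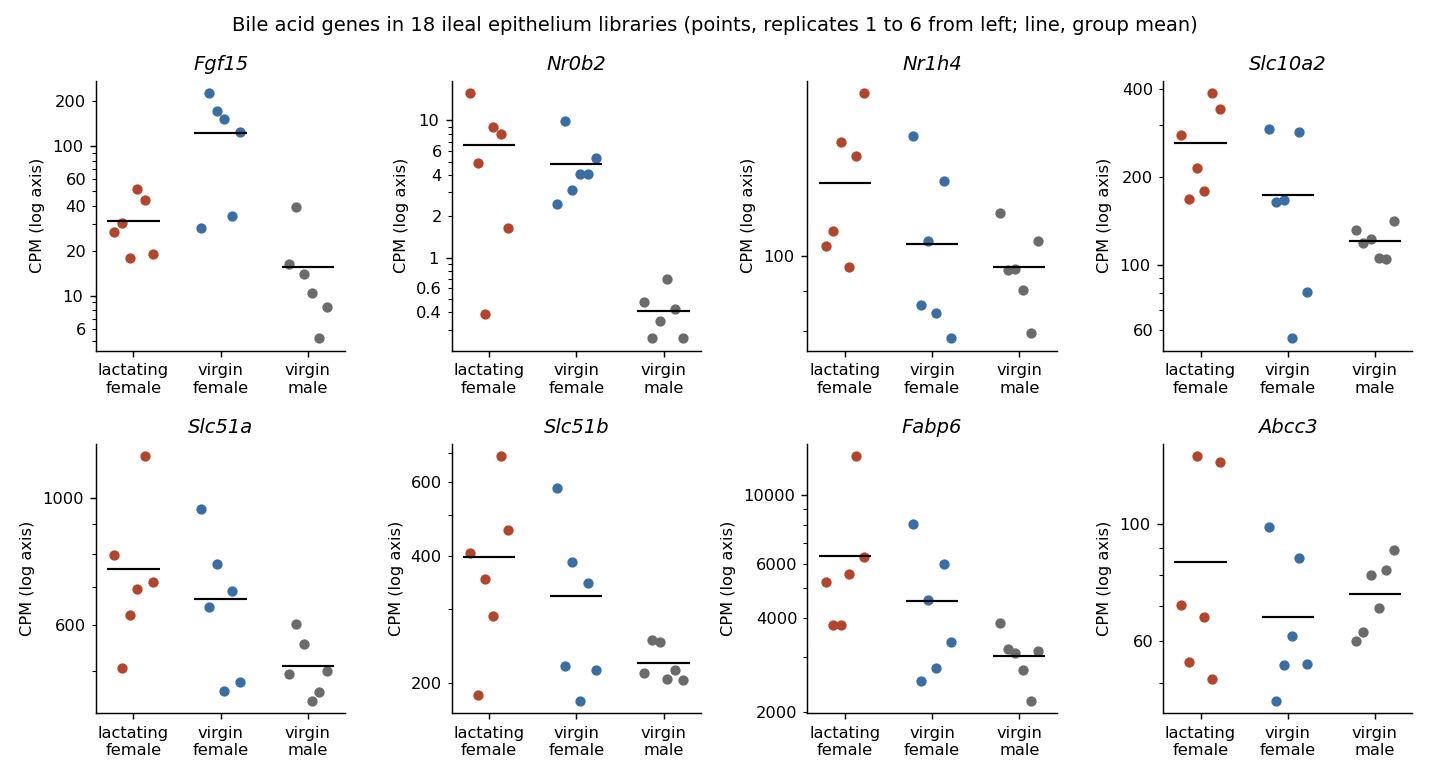
Expression of the 8 genes in CPM on a log axis, with 1 point per library and a line at the group mean (6 libraries per group). Virgin males sit below every virgin female library for Nr0b2, and virgin females 1 and 5 sit with the lactating females for Fgf15.

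Virgin males were set against virgin females of matched age, groups that differ in sex by their labels. Fgf15 and Nr0b2 fell, while the receptor, the transporters and the binding protein did not pass the test. Of the 8 genes 2 were called at an adjusted p under 0.05 by edgeR's quasi-likelihood test over 15572 genes, against 0.0835% of all genes, or 13. Both were lower in males, as were 0.0385% of all genes called. Both, and no other member, also had an unadjusted p under 0.05, against 8.32% of all genes. Of the 8, 7 had a negative log2 fold change, with a median of -0.53, against -0.01 for all genes. An earlier analysis of these data had already called Fgf15 and Nr0b2, so the shares given here are a description and no independent test.

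Nr0b2, the repressor, ran from 0.259 to 0.704 CPM in virgin males (median 0.385) and from 2.46 to 9.82 CPM in virgin females (median 4.08). The groups did not overlap, and every male lay below every virgin female, as held in this direction for 0.238% of all genes tested. The male values rest on 10 to 34 counts per library, above the floor of 3 counts. The log2 fold change was -3.53 (SE 0.63, adjusted p = 0.0296). Fgf15, the hormone, ran from 5.16 to 39.4 CPM in virgin males (median 12.2) and from 28.2 to 226 CPM in virgin females (median 138). The groups overlapped through virgin male 2, at 39.4 CPM, which exceeded virgin females 1 and 5. The log2 fold change was -2.97 (SE 0.53, adjusted p = 0.0296).

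The calls by edgeR were not stable to the choice of libraries. On all 18 libraries, DESeq2's Wald test called both genes (adjusted p = 2.32e-05 for Fgf15 and 1.41e-07 for Nr0b2). In edgeR's fit of the 2 groups alone, Nr0b2 was called (adjusted p = 0.000385) and Fgf15 was not (adjusted p = 0.15). Without virgin female 2 and virgin male 6, the log2 fold changes were -2.58 for Fgf15 and -3.10 for Nr0b2, with an adjusted p of 0.289 for each in edgeR's test. Leaving out single libraries ended the call of Fgf15 for virgin females 2 and 3 and virgin males 1, 3, 4, 5 and 6 (log2 fold changes over all 18 such fits of -3.50 to -2.71, adjusted p up to 0.129), and that of Nr0b2 for virgin female 2 and each virgin male (-3.76 to -3.20, adjusted p up to 0.114).

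The receptor gene Nr1h4 ran from 79.5 to 114 CPM in virgin males and from 78.2 to 143 CPM in virgin females, with a log2 fold change of -0.10 (SE 0.16, adjusted p = 0.808). The importer Slc10a2 ran from 104 to 141 CPM in virgin males and from 55.9 to 291 CPM in virgin females, so that the male range lay inside the female range (log2 fold change -0.53, SE 0.32, adjusted p = 0.571). Slc51a stood at -0.39 (SE 0.20), Slc51b at -0.53 (SE 0.28) and Fabp6 at -0.59 (SE 0.32), each with an adjusted p of 0.565, and Abcc3 at 0.14 (SE 0.24, adjusted p = 0.82). All 6 males lay below the virgin female mean for Slc10a2, Slc51a, Slc51b and Fabp6. The virgin males varied less than the virgin females for these carriers: the coefficient of variation of Slc10a2 was 11.9% in males and 56.8% in virgin females, and that of Slc51b 10.1% and 46.6%. These differences in spread were not tested.

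The marker lists of cell position had 0 genes called in this comparison. Enterocyte markers had a negative log2 fold change in 8 of 8 genes and summed to 15230 to 31224 CPM in males and 21494 to 67291 CPM in virgin females. The 35 cell cycle genes were positive in 35 of 35 and summed to 1265 to 1701 CPM in males and 625 to 1804 CPM in virgin females. Stem cell markers were positive in 4 of 6, and villus tip markers in 3 of 6, with a median log2 fold change of -0.02. With the cell cycle score of each library (the mean log2 CPM of those 35 genes) as a covariate, the log2 fold change went from -0.53 to 0.08 for Slc10a2 (SE 0.26), from -0.39 to -0.08 for Slc51a (SE 0.14), from -0.53 to -0.08 for Slc51b (SE 0.22) and from -0.59 to -0.18 for Fabp6 (SE 0.29). The same covariate left Fgf15 at -3.00 (SE 0.56, adjusted p = 0.0524) and Nr0b2 at -3.20 (SE 0.62, adjusted p = 0.0679), which ended both calls at nearly the same size of difference.

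**Figure D2:**
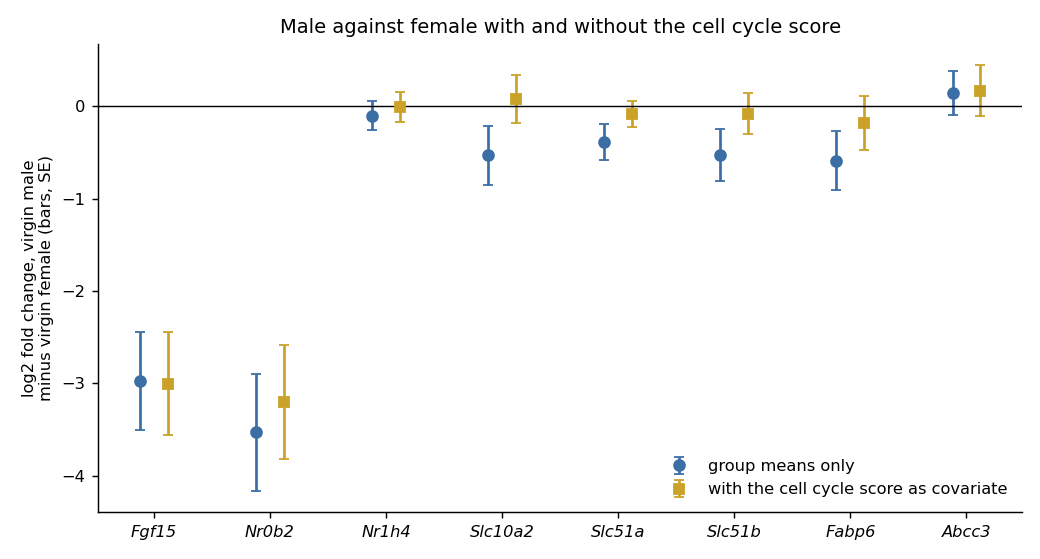
Log2 fold changes of virgin males minus virgin females for the 8 genes, with bars of 1 SE, from the fit on group means (circles) and from the fit that adds the cell cycle score (squares). Slc10a2, Slc51a, Slc51b and Fabp6 move toward 0 with the score, and Fgf15 and Nr0b2 stay near -3.

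Lactation was addressed by setting nursing females against virgin females of matched age. These groups also differ in past pregnancy and may differ in chow, as RM3 was the breeding chow. The part of either was not tested. The median of Fgf15 was 28.7 CPM in nursing and 138 CPM in virgin females, and that of Nr0b2 was 6.43 and 4.08 CPM. None of the 8 genes was called by edgeR's test, against 0.0578% of all genes (9 of 15572). At an unadjusted p under 0.05 there was 1, Fgf15, against 6.44% of all genes, and limma-voom also called 0. The DESeq2 test called 1, Fgf15, at an adjusted p of 0.0491. Apart from Fgf15 the other 7 genes had positive log2 fold changes, with a median over all 8 of 0.32.

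Fgf15 ran from 17.7 to 51.4 CPM in lactating females (median 28.7) and from 28.2 to 226 CPM in virgin females (median 138). All 6 lactating libraries lay below the virgin female mean, and 4 virgin females, at 124 to 226 CPM, lay above every lactating one. Virgin females 1 and 5, at 28.2 and 33.9 CPM, fell inside the lactating range. The log2 fold change was -1.96 (SE 0.51, adjusted p = 0.292), and it was -2.17 to -1.70 when single libraries were left out.

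Nr0b2 ran from 0.39 to 15.7 CPM in lactating females (median 6.43), a range that took in all the virgin females. Lactating female 3, at 0.39 CPM, lay within the male range and lactating female 1, at 15.7 CPM, above every other library. The log2 fold change was 0.46 (SE 0.54, adjusted p = 0.95), and -0.01 without lactating female 1. In each library the log2 ratio of Fgf15 to Nr0b2 CPM was 0.754 to 5.51 in lactating females (mean 2.90 ± 1.56), 3.06 to 5.81 among virgin females (4.44 ± 1.02) and 3.60 to 7.23 among virgin males (5.03 ± 1.29; SD, n = 6 each). This ratio was chosen after the values were seen, its groups overlapped, and its difference was not tested.

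The carriers had higher medians in lactating females and did not pass the test. Slc10a2 ran from 167 to 386 CPM (median 246), against a virgin female median of 165 CPM, with a log2 fold change of 0.59 (SE 0.32, adjusted p = 0.821). Fabp6 ran from 3808 to 13354 CPM (median 5400), against a median of 3964 CPM, with a log2 fold change of 0.48 (SE 0.32, adjusted p = 0.898). Lactating female 5 held the highest value of Fabp6, Slc51a, Slc51b and Slc10a2 among all 18 libraries, and without it the log2 fold change of Fabp6 was 0.12. Slc51a was at 0.18 (SE 0.20), Slc51b at 0.31 (SE 0.28), Nr1h4 at 0.26 (SE 0.16) and Abcc3 at 0.34 (SE 0.24), with adjusted p-values of 0.863 to 0.943. Villus tip markers were positive in 5 of 6 genes in this comparison, with 0 called, and summed to 1666 to 18914 CPM in lactating and 1698 to 6917 CPM in virgin females. Enterocyte markers were positive in 3 of 8, cell cycle genes in 28 of 35, enteroendocrine markers in 6 of 6, and stem and Paneth cell markers in 0 of 6 and 0 of 5, with 0 called in these lists. With the cell cycle score as a covariate Slc10a2 was at 0.80 (SE 0.24, adjusted p = 0.161) and Fgf15 at -1.96 (SE 0.52, adjusted p = 0.125). The part of the other lists in these values was not tested.

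**Figure D3:**
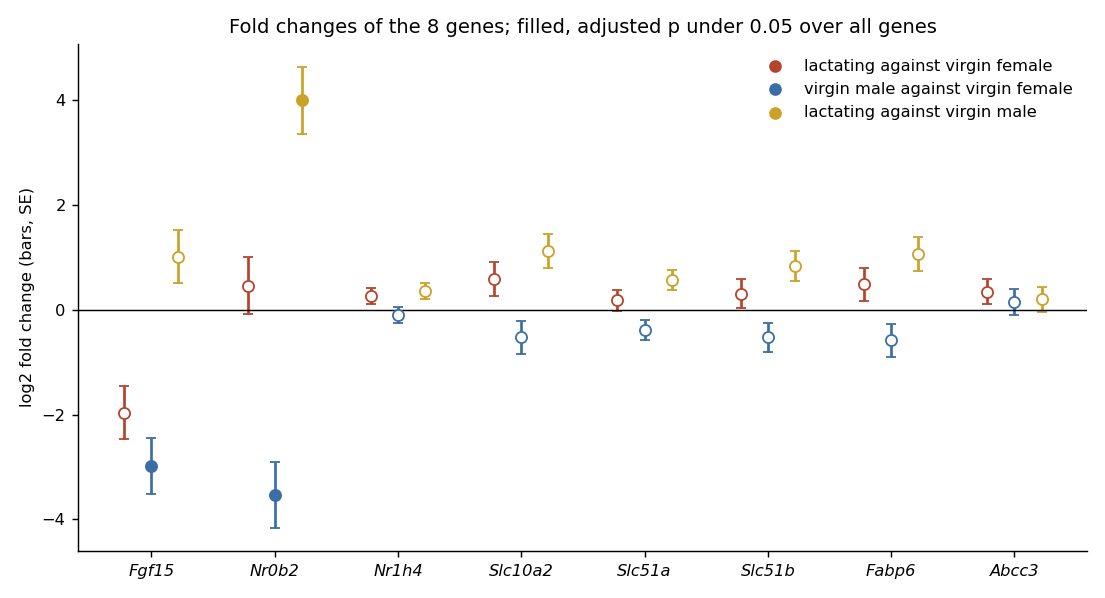
Log2 fold changes of the 8 genes in the 3 comparisons, with bars of 1 SE and filled points where the adjusted p was under 0.05 over 15572 genes. The filled points are Fgf15 and Nr0b2 for virgin males against virgin females and Nr0b2 for lactating females against virgin males.

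Lactating females and virgin males differ in sex and reproductive state at once, and their libraries also enter the comparisons above. All 8 genes had positive log2 fold changes, with a median of 0.92, and 1 was called, Nr0b2, against 0.764% of all genes (119 of 15572), or 0.629% called higher. At an unadjusted p under 0.05 there were 6, against 15.9% of all genes. Nr0b2 rose by 3.99 on the log2 scale (SE 0.64, adjusted p = 0.00268), with 5 of 6 lactating libraries above every male and lactating female 3 among them. It was called in each of the 18 fits that left out 1 library (3.52 to 4.24). Slc10a2 did not overlap: the lowest lactating library stood at 167 CPM and the highest male at 141 CPM, as held in this direction for 0.873% of all genes. The difference was 1.11 on the log2 scale (SE 0.32, adjusted p = 0.129), and it was called by DESeq2 (adjusted p = 0.0256) and in the fit of these groups alone (adjusted p = 0.0155). Fabp6 was at 1.07 (SE 0.32, adjusted p = 0.147), with 6 of 6 lactating libraries above the male mean, and was called by DESeq2 (adjusted p = 0.0271). Slc51b was at 0.83 (SE 0.28), Slc51a at 0.56 (SE 0.20), Nr1h4 at 0.36 (SE 0.16), Abcc3 at 0.20 (SE 0.24) and Fgf15 at 1.01 (SE 0.50), with adjusted p-values of 0.19 to 0.664. Enterocyte markers were positive in 8 of 8 here (21385 to 63107 CPM summed in lactating females) and villus tip markers in 5 of 6. Cell cycle genes were positive in 0 of 35 (598 to 1864 CPM summed in lactating females) and stem cell markers in 0 of 6. None of these lists had a called gene. Enteroendocrine markers were positive in 6 of 6, with 1 called higher, against 0.629% of all genes. With the cell cycle score as a covariate, Slc10a2 was at 0.72 (SE 0.24), Fabp6 at 0.73 (SE 0.28), Slc51b at 0.47 (SE 0.21) and Slc51a at 0.31 (SE 0.13), with adjusted p-values of 0.256 to 0.445, and Nr0b2 kept its call at 3.50 (SE 0.63, adjusted p = 0.0084).

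Within the groups the 8 genes did not vary as 1 block. Correlations were computed on log2 CPM centred on the group mean over the 18 libraries, for 28 pairs of genes and for each gene with the cell cycle and villus tip scores, 44 relations in all, with p-values from 100000 permutations within groups. Of the 28 pairs 11 had a Benjamini-Hochberg adjusted permutation p under 0.05 for Pearson's r. These were 9 of the 10 pairs among Nr1h4, Slc10a2, Slc51a, Slc51b and Fabp6, all positive, and the pairs of Abcc3 with Fgf15 and with Nr0b2, negative. The paired subunits Slc51a and Slc51b were closest, with r = 0.919 (permutation p = 1e-05, the smallest that these permutations give, adjusted 0.00044) and rho = 0.82 (permutation p = 2e-04, adjusted 0.0088). Without the 2 libraries farthest from the median, lactating female 5 and virgin female 1, r was 0.849, and within groups it was 0.919 (lactating females), 0.939 (virgin females) and 0.875 (virgin males).

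Over the 9 pairs r ran from 0.661 to 0.919 (permutation p = 1e-05 to 0.0123, adjusted up to 0.041), rho from 0.655 to 0.82 (permutation p = 2e-04 to 0.0147, adjusted up to 0.0431), and r without the 2 farthest libraries from 0.562 to 0.849. Within virgin females r was 0.767 or higher in each. It did not hold in all groups. Among lactating females r ran from 0.270 for Nr1h4 with Fabp6 to 0.937 for Slc10a2 with Slc51b, and was 0.543 for Nr1h4 with Slc51b. Within virgin males r was -0.06 for Slc10a2 with Slc51b, -0.08 for Nr1h4 with Slc51b and 0.135 for Slc51b with Fabp6. In the same males it was 0.767 for Slc10a2 with Fabp6 and 0.966 for Nr1h4 with Fabp6. Fgf15 and Nr0b2, which respond to the same receptor, were related at r = 0.344 (permutation p = 0.0721, adjusted 0.144) and rho = 0.393 (permutation p = 0.0922, adjusted 0.202). Without virgin females 1 and 5 their r was 0.324. Within groups it was 0.738 (lactating females), 0.605 (virgin females) and -0.329 (virgin males).

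**Figure D4:**
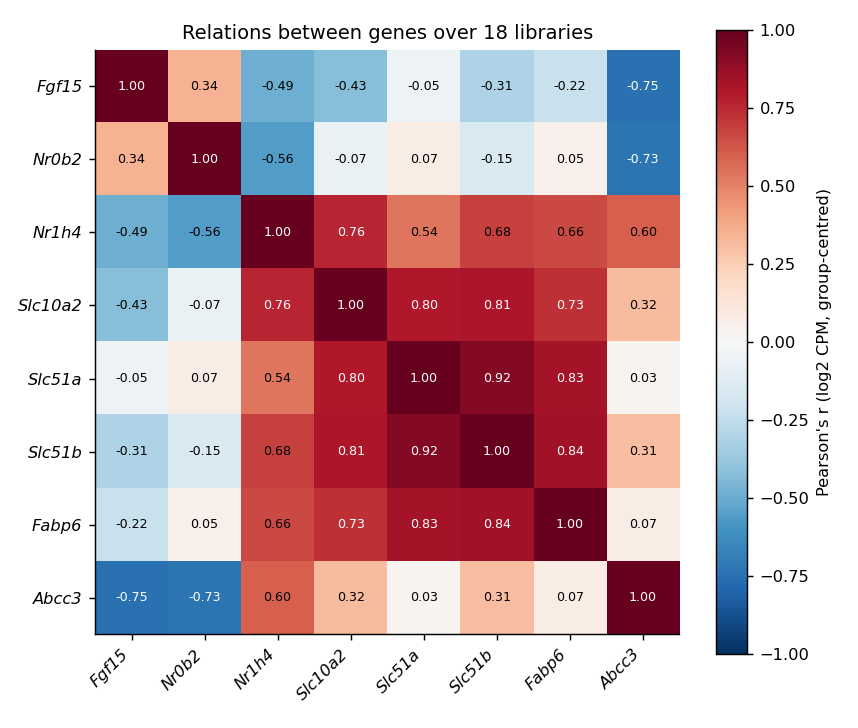
Pearson's r between each pair of the 8 genes, on log2 CPM centred on the group mean over 18 libraries. Nr1h4, Slc10a2, Slc51a, Slc51b and Fabp6 form a block of positive values, and Abcc3 is negative with Fgf15 and Nr0b2.

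Abcc3, the exporter of the MRP family, ran against Fgf15 in each group. Abcc3 stood at 50.9 to 134 CPM in lactating females, 46.2 to 98.4 CPM among virgin females and 60.1 to 89.2 CPM among virgin males, with no called difference between groups. Its r with Fgf15 was -0.746 (permutation p = 0.00019, adjusted 0.00418) and rho was -0.734 (permutation p = 0.00089, adjusted 0.00979). It was -0.668 without virgin females 1 and 5, and -0.833 within the lactating group, -0.973 within virgin females and -0.716 within virgin males. The r of Abcc3 with Nr0b2 was -0.732 (permutation p = 0.00872, adjusted 0.0349) and rho -0.701 (permutation p = 0.00791, adjusted 0.0316), with r = -0.736 without lactating females 1 and 3 and -0.296 within virgin males. Virgin females 1 and 5, which had the lowest Fgf15 of their group, had its highest Abcc3 (98.4 and 86.1 CPM), Nr1h4 (143 and 125 CPM), Slc10a2 (291 and 284 CPM) and Fabp6 (8063 and 5967 CPM). The exporter subunits departed from this. Virgin female 3 lay above virgin female 5 for Slc51a (768 against 688 CPM) and for Slc51b (388 against 345 CPM).

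The cell cycle score sums up genes that dividing crypt cells express. It was negatively related to the exporter subunits and the importer, and its relations with the other members did not pass. Among these, Fabp6 had r = -0.516 (permutation p = 0.084, adjusted 0.154). Nr1h4 had r = -0.266 (permutation p = 0.373, adjusted 0.529) and Abcc3 r = -0.049 (permutation p = 0.88, adjusted 0.922). For Slc51a r was -0.789 (permutation p = 0.00223, adjusted 0.014) and rho -0.823 (permutation p = 0.00047, adjusted 0.00979). It was -0.829 without lactating female 1 and virgin female 1, and -0.728 within the lactating group, -0.915 within virgin females and -0.371 within virgin males. For Slc10a2 r was -0.733 (permutation p = 0.00531, adjusted 0.0234; rho -0.744, permutation p = 0.00416, adjusted 0.0202; -0.769 without the same 2 libraries), with 0.143 within virgin males. For Slc51b r was -0.701 (permutation p = 0.0141, adjusted 0.0413; rho -0.674, permutation p = 0.0128, adjusted 0.0421; -0.698 without them). For Fgf15 r was 0.192 (permutation p = 0.475, adjusted 0.615; rho 0.1, permutation p = 0.71; -0.05 without them) and for Nr0b2 -0.342 (permutation p = 0.307, adjusted 0.466; rho -0.07, permutation p = 0.827; -0.286 without them). Of the 8 relations with the villus tip score 1 passed for r and none for rho: for Slc51a r was 0.577 (permutation p = 0.013, adjusted 0.041) and rho 0.48 (permutation p = 0.0525, adjusted 0.144), with r = 0.644 without virgin male 6 and lactating female 3.

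**Figure D5:**
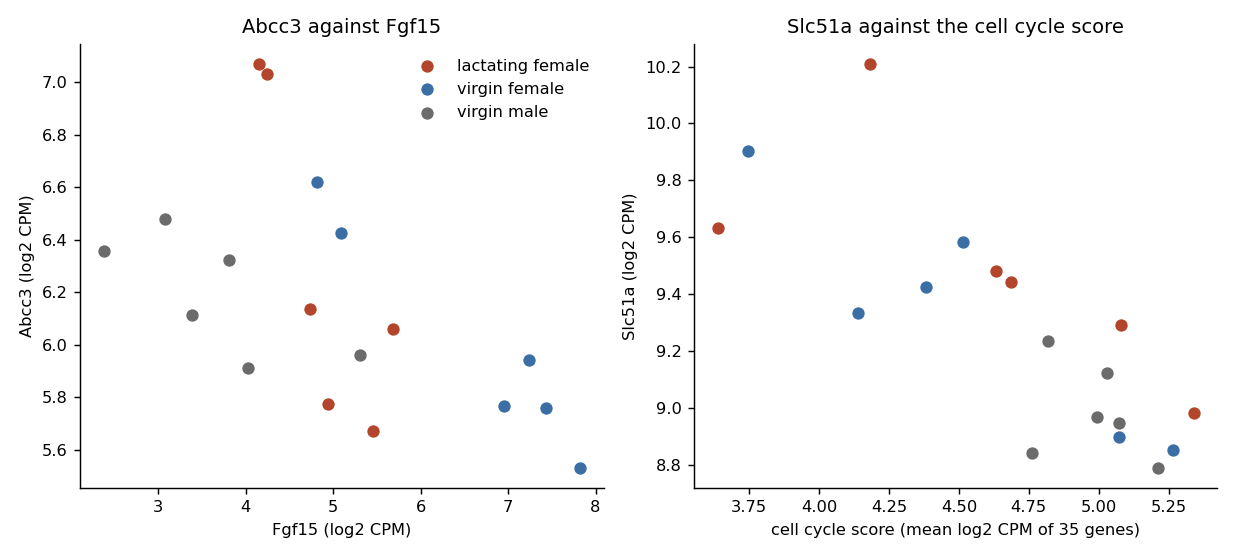
Left, Abcc3 against Fgf15; right, Slc51a against the cell cycle score, each in log2 CPM with 1 point per library coloured by group. Abcc3 is lower where Fgf15 is higher within each group (r of -0.833, -0.973 and -0.716), and Slc51a is lower where the score is higher (r of -0.728, -0.915 and -0.371).

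The wider pathway was read from 5 lists. Other genes reported to respond to FXR in the intestine numbered 8, all tested: 0 were called in either comparison with virgin females and 2 rose in lactating females against virgin males, where 0.629% of all genes were called higher. Log2 fold changes were positive in 7 of 8 for lactating against virgin females. They were positive in 1 of 8 for males against virgin females and in 6 of 8 for lactating females against males. Il18, a cytokine of epithelial defence, ran from 26.8 to 61.3 CPM in lactating females, 16.3 to 38.4 CPM among virgin females and 11.5 to 23.0 CPM among virgin males. Its lactating and male libraries did not overlap (log2 fold change 1.32, SE 0.23, adjusted p = 0.0063), and against virgin females it was at 0.94 (SE 0.23, adjusted p = 0.221). Car12, a carbonic anhydrase, ran from 25.0 to 55.5 CPM in lactating females, 27.9 to 46.2 CPM among virgin females and 20.2 to 28.8 CPM among virgin males. Against males it was at 0.81 (SE 0.18, adjusted p = 0.0458), a call kept in 7 of 18 fits that left out 1 library (0.72 to 0.92, adjusted p up to 0.121) and lost without lactating female 1, 4 or 5, virgin female 3 or 5, or any 1 virgin male.

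Of 12 genes for synthesis, conjugation and detoxification of bile acids 8 were tested, and 1 rose in lactating females against males, beside the same 0.629% of all genes. Positive log2 fold changes numbered 4 of 8 in lactating against virgin females, 0 of 8 in males against virgin females and 6 of 8 in lactating females against males. Cyp3a44, a steroid hydroxylase of the Cyp3a cluster, ran from 0.939 to 17.8 CPM in lactating females, 0.731 to 2.51 CPM among virgin females and 0.473 to 1.58 CPM among virgin males. The log2 fold change against males was 3.24 (SE 0.54, adjusted p = 0.00351) and against virgin females 2.30 (SE 0.51, adjusted p = 0.157), although lactating female 3 lay within the male range. Cyp3a genes are close copies, so reads may be split among them. Cyp7a1, the rate-limiting enzyme of bile acid synthesis in the liver, had 1 count over all 18 libraries and Cyp8b1 had 0.

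The nuclear receptors and coregulators had 0 of 15 tested genes called in each comparison. Vdr, the vitamin D receptor, which also binds a secondary bile acid, was at -0.24 in lactating against virgin females (SE 0.11, adjusted p = 0.731). Nr5a2 (LRH-1) was at 0.15 in males against virgin females (SE 0.14, adjusted p = 0.678). In lactating females Nr5a2 was at -0.34 against males (SE 0.14, adjusted p = 0.272) and -0.19 against virgin females (SE 0.14, adjusted p = 0.912). The corepressor Ncor1 was at 0.48 in lactating females against males (SE 0.14, adjusted p = 0.135). The bile acid receptor Gpbar1 was not tested, with at most 0.396 CPM in a library. Of the genes for Fgf15 production and reception 0 of 5 tested were called. Malrd1 (Diet1), which promotes Fgf15 output, stood at 257 ± 51.4 CPM in lactating females, 294 ± 79.3 among virgin females and 243 ± 24.7 among virgin males (SD, n = 6 each), with log2 fold changes of -0.19 (SE 0.16) and -0.27 (SE 0.16) against virgin females. The receptor genes Fgfr4 and Fgfr2 had group means of 4.75 to 6.71 CPM and 9.66 to 12.3 CPM. Of 11 other bile acid and organic anion transporters 8 were tested and 0 called. In males against virgin females, Slco2b1, an organic anion importer, was at 0.51 (SE 0.19), and the efflux pumps Abcg2 and Abcc2 at -0.43 (SE 0.22) and -0.33 (SE 0.25), with adjusted p-values of 0.565 to 0.618.

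The genes whose log2 CPM followed Nr0b2 most closely over the 18 libraries were Pdgfrb (r = 0.877), Car12 (0.866), Mtus1 (0.827), Tm4sf4 (0.826) and Plpp5 (0.817), chosen as the 5 highest among genes of at least 1 CPM on average and given as a description. Centred on the group mean, the same values were 0.835, 0.829, 0.745, 0.91 and 0.705. Car12 also stands in the list of FXR response genes above. The genes nearest to Fgf15 lay farther off: Esco1 (0.763), Grin2d (0.695), Tctex1d2 (0.694), Gata5 (0.678) and Lnx1 (0.671), with 0.612, 0.525, 0.521, 0.202 and 0.334 after centring. None of these 10 genes was called in either comparison with virgin females.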

How the data were processed

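The authors deposited 1 table per library with a raw count of reads for each Ensembl gene. The submitters' processing notes name HISAT2 2.0.4, featureCounts (Subread 2.0.0), FastQC 0.11.5, DESeq2 1.24.0 and build GRCm38. The sources used here do not give the annotation release, strand setting or treatment of multimapping reads. Symbols, coordinates and exon lengths came from GENCODE M21 (419 identifiers had no entry). None of 153 pairs of libraries agreed within sampling noise (lowest chi-square per degree of freedom 35.5).

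Genes were filtered with filterByExpr of edgeR 4.0.16 (R 4.3.3), leaving 15572, and scaled with TMM. All 18 libraries entered a single quasi-likelihood fit, 1 coefficient per group, with Benjamini-Hochberg adjustment over all genes. SE is the fold change over the square root of F. Log2 CPM used a prior count of 2. Data were simulated for males against virgin females (15572 genes), with 50 genes changed at each fold size. The test recovered 38% of genes changed 1.5-fold, 74% of those changed 2-fold and 100% of those changed 4-fold. It made 165 calls on the simulated data, 9 of them false, against 13 calls in the real comparison. The adjustment is less strict where more genes are called, so these shares do not give the power for the real data. Reads carried no molecular identifiers, and the floor of 3 counts therefore covers counting error only. Alternatives were limma 3.58.1 (voom), DESeq2 1.42.0, other filters, scaling, covariates and left-out libraries.

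The 8 genes and all lists were chosen with earlier results of these data known. Named genes were the 8 members, called genes of 5 pathway lists (or the 3 of smallest p), and the 5 genes most alike to Fgf15 and Nr0b2.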

Additional observations from a re-analysis of the deposited data

Results flagged for a closer look

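Each of 20 genes was screened in each group of 6 for a highest or lowest library whose gap to the next, over the group's range, exceeded Dixon's critical value, 60 groups in all. Chance flags about 1 in 20 groups, and 5 were found. Fgf15 stood at 39.4 CPM in virgin male 2, against 16.2 CPM in the next male. Fabp6 stood at 13354 CPM in lactating female 5, against 6299 CPM in the next. Abcc2 stood at 336 CPM in virgin female 2, which also had high Gm42418, against 223 CPM in the next. Nr5a2 stood at 83.1 CPM in virgin male 1, against 75.5 CPM, and Fgfr2 at 14.1 CPM in lactating female 2, against 9.58 CPM.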

How the results depend on the processing

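Of 648 alternative values for the 24 fold changes of the 8 genes, 618 kept their direction and side of the threshold, 21 lost a call, 4 gained one and 5 changed sign; each of the 5 stood without a call. Those 5 were Nr0b2 in lactating against virgin females (-0.24 with voom, and -0.00687 to 0.791 with single libraries out, the lowest without lactating female 1), and in males against virgin females Slc10a2 (0.0804 with the cell cycle score), Abcc3 (-0.00289 without virgin female 2 and virgin male 6) and Nr1h4 (-0.168 to 0.0139 with single libraries out, the highest without virgin female 1). In males against virgin females the number of the 8 genes called, 2, became 1 with voom, 1 with the 2 groups alone, 0 with the cell cycle score, 0 without virgin female 2 and virgin male 6, and 0 to 2 when single libraries were left out. Nr0b2 was then at -3.29 (voom), -3.20 (score) and -3.10 (both libraries out), and Fgf15 at -2.97 (2 groups), -3.00 (score) and -2.58 (both libraries out), with single libraries out at -3.76 to -3.20 and -3.50 to -2.71. DESeq2 called 1 of the 8 in lactating against virgin females (0 in the fit reported, 0 to 0 with single libraries out) and 3 in lactating females against males, where the 2 groups alone gave 2 (1 in the fit reported, 1 to 1 with single libraries out). The cause of these changes was not tested.

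Over all genes, lactating against virgin females gave 9 calls, and 69 with DESeq2, 61 with the cell cycle score, 15 with a filter at 1 CPM, 2 with voom, 1 with the groups alone, 1 without virgin female 2 and virgin male 6, and 2 to 16 with single libraries out. Males against virgin females gave 13, and 30 with DESeq2, 20 with voom and 20 without a filter. Lactating females against males gave 119, and 410 with DESeq2, 217 with voom, 61 without virgin female 2 and virgin male 6, and 62 to 311 with single libraries out. Same-numbered libraries correlated at -0.219 to 0.477 in their deviations from group means, and 7 of 18 pairs were above 0.1. Of the 18, 4 matched their own number best, among them virgin female and male 4 (0.477) and 5 (0.364). These values show no steady pairing by replicate number and cannot exclude one. With the replicate block, calls over all genes were 1, 11 and 114 in the 3 comparisons, and 1 of the 8 genes was called in males against virgin females, with Nr0b2 at -3.65 (adjusted p = 0.0506).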
